A study of Drosophila melanogaster with 3 samples.

Results

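The genes described here are 10 genes of neurons and synapses in *Drosophila melanogaster*: elav, fne, Syx1A, nSyb, Syt1, brp, para, ChAT, VGlut and Gad1. They were picked by name from the 13945 protein-coding genes of the Ensembl BDGP6 annotation, and all 10 were found. The measurement was a ChIP-seq map of CG12659, which corresponds in the fly to INO80C, a subunit of the chromatin remodeller INO80. Embryos of mixed sex, 0 to 24 h old, came from 1 transgenic line that stably expresses CG12659 with a C-terminal GFP tag, and sheared chromatin was precipitated through that tag. There were 3 biological replicates of this single group, and no untagged or treated group was compared. Regions on the dm6 build were deposited as lists, with 30000, 30000 and 28466 regions in replicates 1, 2 and 3. A list called on the replicates together (the pooled list) held 30000. An irreproducible discovery rate step kept 8952 as reproducible (the IDR peaks). The pooled list was deposited as peaks and background, the input of that step, so its regions outside the IDR peaks may be background. The IDR peaks were the 8952 pooled regions with the highest signal. Being an IDR peak thus follows pooled signal and does not mean that each replicate listed the region. The lists hold no read counts, so the depth behind each value is unknown, and the 3 replicates alone set the precision.

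Each region carries a signal value given by the authors' processing. Its scale differs between lists, so a region is described by its rank in the list (rank 1 being the highest signal) and by its percentile, the share of the list with a lower signal. All regions from 2000 bp upstream of a gene's first transcription start site (TSS) to 2000 bp past its end were collected. A region counted as own promoter where its summit lay within 500 bp of a TSS of the gene, and as intron where the summit was over 500 bp from any TSS and in no exon of any gene. Whole embryos were used, and neurons are only some of their cells. A weak region here could mean few cells with the protein, little protein per cell or background, and these cannot be told apart.

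Neurons are built late in embryogenesis, and their genes are switched on as precursors stop dividing. ELAV and its relative FNE are RNA-binding proteins that shape the splicing and the 3′ ends of neuronal transcripts. At a synapse, an action potential carried by sodium channels opens calcium channels at the active zone, and synaptotagmin and the SNARE proteins then fuse transmitter-filled vesicles with the membrane. INO80 moves nucleosomes, and the remodeller is known from yeast and other organisms to sit at many promoters of broadly active genes.

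CG12659 lay at the promoters of 3 of the 10 genes in the IDR set: elav, Syx1A and fne. Across all protein-coding genes 42.3% had such a promoter peak. The region at elav was the highest of the 3, with a signal of 2407, against 414 at Syx1A and 264 at fne. The transmitter genes ChAT, VGlut and Gad1 and the vesicle genes nSyb and Syt1 had no IDR peak at an own promoter. In the pooled list 5 of the 10 genes had an own promoter region (the same 3 with Syt1 and para), where 57.9% of all genes did. The single replicates gave 7, 4 and 5 genes, where 58.9%, 57.8% and 55.7% of all genes had such a region. With a TSS distance of 200 bp in place of 500 bp, Syx1A was the 1 gene of the 10 that still counted, since the elav and fne summits lie farther out, and 34.5% of all genes did.

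The sequence at the summits of 6 IDR peaks, at the 3 promoters with a peak and at the main regions away from own promoters, is shown first. Each run is 101 bases of the release 6 genome centred on the summit, 5′ to 3′ on the strand of the gene, with any match to a searched motif in capitals. The elav promoter window is chrX:523452-523552 (minus strand) and the elav intron window chrX:522571-522671 (minus strand). The Syx1A promoter window is chr3R:24105772-24105872 and the Syx1A upstream window chr3R:24106384-24106484, both on the minus strand. The fne window, at an internal TSS, is chrX:12937975-12938075 (plus strand), and the ChAT window, inside the gene, chr3R:18719893-18719993 (plus strand).
elav promoter: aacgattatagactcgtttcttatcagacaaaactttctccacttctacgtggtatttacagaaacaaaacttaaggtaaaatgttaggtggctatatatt
elav intron: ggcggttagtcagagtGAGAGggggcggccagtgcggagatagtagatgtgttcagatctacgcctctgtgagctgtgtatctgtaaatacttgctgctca
Syx1A promoter: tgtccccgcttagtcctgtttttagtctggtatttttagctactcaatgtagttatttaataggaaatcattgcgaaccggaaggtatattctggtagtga
Syx1A upstream: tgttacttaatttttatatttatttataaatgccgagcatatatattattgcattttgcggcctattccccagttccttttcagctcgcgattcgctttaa
fne internal promoter: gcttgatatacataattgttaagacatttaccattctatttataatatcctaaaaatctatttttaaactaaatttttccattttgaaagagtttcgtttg
ChAT gene body: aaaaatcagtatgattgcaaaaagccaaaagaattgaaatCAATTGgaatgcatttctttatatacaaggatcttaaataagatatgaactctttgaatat

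Of the motifs searched on both strands, GAGAG (the GAGA factor element) was found in the elav intron window and CANNTG (the E-box) in the ChAT window. CAATTG, the E-box match in the ChAT window, reads the same on both strands. TATCGATA (the DNA replication-related element bound by DREF), its part CGATA, and GGTCACAC (the core of the motif bound by M1BP) were in none of the 6 windows. Among the 5716 IDR summits within 500 bp of a TSS, TATCGATA was in 5.39%, CGATA in 27.6%, GGTCACAC in 5.0%, GAGAG in 9.53% and CANNTG in 36.1%. Every TATCGATA also holds CGATA, so these counts overlap. The absence of a match says only that these letters were not in these windows. The promoter windows differed in base composition: 31.7% G or C at elav, 37.6% at Syx1A and 21.8% at fne, against a median of 37.6% and quartiles of 29.7% and 44.6% over those 5716 windows.

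elav (FBgn0260400), the pan-neuronal RNA-binding protein gene, spans 13992 bp on the minus strand (dm6 chrX:509235-523226). Its promoter peak, chrX:523274-523727, had its summit 276 bp upstream of the first TSS. The signal was 952 in replicate 1, 881 in replicate 2 and 567 in replicate 3, at ranks 73, 56 and 80 of their lists. The percentile was therefore over 99 in each replicate, with a mean of 99.77 ± 0.05 (SD, n = 3). Of the 5903 protein-coding genes with an IDR promoter peak, 98.9% had a lower signal at their highest one. The median of those genes was 461, with quartiles at 318 and 678. A non-coding RNA gene, lncRNA:enrr, starts at the same base as elav on the same strand, so the peak belongs to both starts.

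The promoter regions next to the elav peak in signal lay at genes of several kinds. Just above it were the peaks at CG9004 with the mitochondrial ribosomal protein gene mRpL23 (2443), at MFS10 (2437), and at CG46429 with Sesn (2433), the sestrin gene. Just below were C1GalTA, a glycosyltransferase gene, at 2407.02, the glutathione transferase gene GstE13 at 2396, and msi, the gene of the RNA-binding protein Musashi, at 2359. Counted among promoter regions alone, the elav region had rank 47.

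A second IDR peak of elav lay in an intron, 605 bp downstream of the first TSS (chrX:522502-522770). It had a pooled signal of 606 and rank 1794. In replicates 1, 2 and 3 the signal was 201, 244 and 159.8, at ranks 3074, 1157 and 1594, a mean percentile of 93.4 ± 3.30 (SD, n = 3). All 3 replicates thus placed the intron region below the promoter region. The second annotated TSS of elav had only a weak pooled region (signal 52.8, rank 27879), which replicate 3 lacked. Of the 10 pooled regions in the elav window, 2 were own promoter, 3 intron, 4 exon and 1 upstream.

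**Figure D1:**
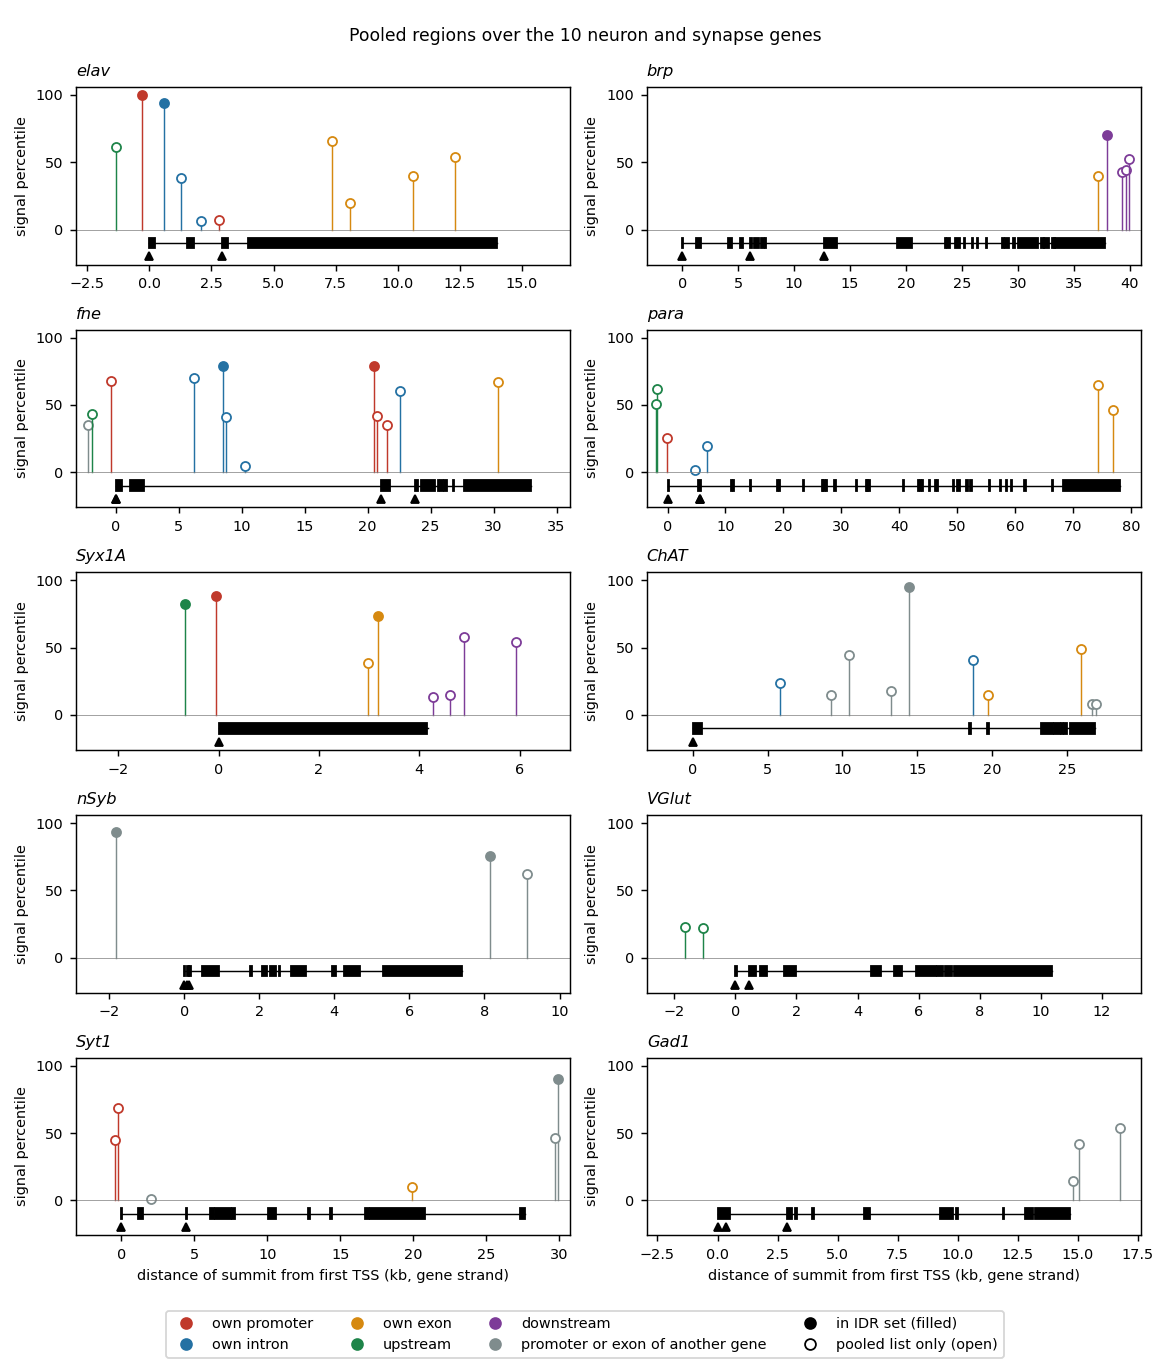
Regions of the pooled list over the 10 genes. Each panel shows 1 gene with exons as black boxes and TSSs as triangles, the x axis is the distance of the summit from the first TSS in kb along the gene's strand, and the y axis is the percentile of the signal in the pooled list. Filled points are IDR peaks and open points are in the pooled list only. The elav promoter region stands at the top of its panel, while para, VGlut and Gad1 have no filled point.

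Syx1A (FBgn0013343) encodes syntaxin, the SNARE of the plasma membrane at synapses. It is a short gene of 4164 bp on the minus strand (dm6 chr3R:24101600-24105763). It has 1 TSS and no sequence that counted as intron under the rule above. The promoter peak, chr3R:24105626-24105959, had its summit 59 bp upstream of the TSS. The signal was 239 in replicate 1, 80.2 in replicate 2 and 107 in replicate 3, at ranks 2252, 7068 and 3216. Replicate 2 was the low one, with a percentile of 76.4, and the mean percentile was 85.9 ± 8.39 (SD, n = 3). Among the genes with an IDR promoter peak, 41.9% had a lower signal, so Syx1A lay a little below the middle.

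Syx1A was the only one of the 10 genes with an IDR peak in the upstream class and the only one with an IDR peak in an exon. The upstream region (chr3R:24106344-24106497) lay 671 bp before the TSS, with a pooled signal of 315 and rank 5188. In replicates 1 and 2 its signal was 179.7 and 139, at ranks 3701 and 3386. Replicate 3 had 2 overlapping regions there. The one with the nearest summit, 27 bp away, had a signal of 17.7 and rank 27341, which gives a mean percentile of 60.1 ± 48.6 (SD, n = 3). The stronger one, at rank 6464, had its summit 231 bp away and within 500 bp of the TSS, and with it the mean is 84.6 ± 6.31 (SD, n = 3). The upstream region was higher than the promoter region in replicate 2 and lower in the other replicates with either match. The exon peak (chr3R:24102334-24102823, in the 3′ UTR) had a signal of 208 and rank 7992. It matched regions at ranks 6662 and 7320 in replicates 1 and 2 and no region in replicate 3. A further 4 pooled regions lay past the gene's end.

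fne (FBgn0086675), the elav paralog, spans 32941 bp on the plus strand (dm6 chrX:12917477-12950417) and has 4 TSSs. Its IDR promoter peak was not at the first of them: the summit lay 492 bp upstream of an internal TSS, 20548 bp into the gene, close to the 500 bp limit. The ranks were 7451, 6088 and 6645 in replicates 1, 2 and 3, and the mean percentile was 77.2 ± 2.32 (SD, n = 3). Only 14.9% of the genes with an IDR promoter peak had a lower signal. The region 389 bp upstream of the first TSS missed the IDR set, with a signal of 169.6, rank 9656 and replicate ranks of 10296, 10050 and 11398. So at fne the region at the outer promoter ranked below the internal one in each replicate. In replicate 3 the internal region had its summit 501 bp from the TSS, just past the limit for a promoter.

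fne also held an IDR peak in an intron, 8542 bp from its nearest own TSS, with almost the same pooled signal as its promoter peak (263.9 and 264.2). The ranks of the intron region were 7498, 7819 and 5132. It was below the promoter region in replicates 1 and 2 and above it in replicate 3. The pooled list had 12 regions in the fne window, the most of the 10 genes: 4 own promoter, 5 intron, 1 exon, 1 upstream and 1 at the promoter of another gene. Neighbouring regions in the lists can overlap, and 1 of the 4 promoter regions and 1 of the 5 intron regions overlap the IDR peaks of fne.

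The lowest signal in the IDR set was 184.6, and the genes had regions on either side of it. Just inside was the brp region past the gene's end (187, rank 8855). Just outside were an intron region of fne (182, rank 9067), the promoter region of Syt1 (174, rank 9421) and the outer promoter of fne given above.

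The vesicle genes nSyb and Syt1 sit beside promoters with IDR peaks but had none at their own. nSyb (FBgn0013342, dm6 chr3L:1630348-1637752, minus strand) encodes synaptobrevin, the SNARE of synaptic vesicles. Its window held an IDR peak of signal 587 and rank 1938 at the TSSs of Bgb and Mettl2, 1825 bp upstream of its own first TSS. The ranks of that peak were 2211, 2489 and 1474 in replicates 1, 2 and 3. A further IDR peak (225, rank 7439) lay at the TSS of GC, past the end of nSyb. No pooled region was within 500 bp of a TSS of nSyb, and among the replicates only replicate 1 listed one.

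Syt1 (FBgn0004242, dm6 chr2L:2772327-2799979, minus strand) encodes synaptotagmin 1, the calcium sensor of vesicle release. The pooled region at its own promoter had its summit 219 bp upstream of the first TSS, with a signal of 174. Its replicate signals were 93.6, 64.7 and 20.9, at ranks 8097, 8901 and 21633. The percentile was 73.0, 70.3 and 24.0, so replicate 3 stood far below the others, and the mean percentile was 55.8 ± 27.6 (SD, n = 3). The IDR peak in the Syt1 window, of signal 456 and rank 3063, lay 25449 bp from the nearest TSS of Syt1. It was at the neighbouring starts of colt and HINT1, which are transcribed away from each other.

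The active zone gene brp and the channel gene para also had no IDR peak at an own promoter. brp (FBgn0259246, dm6 chr2R:9503765-9541565, plus strand) encodes Bruchpilot, the scaffold of the active zone. Its single IDR peak lay just past the gene's end, with ranks of 12719, 7994 and 12709 in replicates 1, 2 and 3, and no pooled region lay at its promoters. para (FBgn0285944, dm6 chrX:16455027-16533096, minus strand) encodes the voltage-gated sodium channel of the action potential. It is the longest of the 10 genes, at 78070 bp, and had no IDR peak and 7 pooled regions. Its promoter region, 59 bp upstream of the first TSS, was weak (66.7, rank 22378), with ranks of 25749 and 16690 in replicates 1 and 3 and no match in replicate 2.

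None of the 3 transmitter genes had a region within 500 bp of its own TSSs in any of the 5 lists. ChAT (FBgn0000303, dm6 chr3R:18705501-18732344, plus strand) encodes choline acetyltransferase, which makes acetylcholine, and its window held 10 pooled regions, all within or past the gene. VGlut (FBgn0031424, dm6 chr2L:2400295-2410662, plus strand) encodes the transporter that loads vesicles with glutamate. It had 2 pooled regions in all, of signal 64.2 and 63.8, both upstream, 1635 and 1062 bp before the first TSS. Gad1 (FBgn0004516, dm6 chr3L:4074077-4088744, minus strand) encodes glutamate decarboxylase, which makes GABA. Its 3 pooled regions all lay at TSSs of other genes near its end.

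The sequence before the start is shown for 4 of the genes with no own promoter region in the pooled list. That of brp, which also had none, is not shown. Each run is the 100 bases before the first TSS, 5′ to 3′ on the strand of the gene, with matches to the searched motifs in capitals. The windows on the release 6 genome are chr3L:1637753-1637852 (minus strand) for nSyb, chr3R:18705401-18705500 (plus strand) for ChAT, chr2L:2400195-2400294 (plus strand) for VGlut and chr3L:4088745-4088844 (minus strand) for Gad1.
nSyb: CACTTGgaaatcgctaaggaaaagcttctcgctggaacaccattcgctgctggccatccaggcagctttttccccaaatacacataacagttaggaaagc
ChAT: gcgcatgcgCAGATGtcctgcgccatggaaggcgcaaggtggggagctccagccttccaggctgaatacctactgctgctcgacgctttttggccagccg
VGlut: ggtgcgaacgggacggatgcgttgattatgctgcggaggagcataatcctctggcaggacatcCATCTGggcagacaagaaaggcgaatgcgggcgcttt
Gad1: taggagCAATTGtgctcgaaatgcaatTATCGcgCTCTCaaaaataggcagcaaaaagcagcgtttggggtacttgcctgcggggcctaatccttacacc

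Each of the 4 windows held a CANNTG E-box, which was present in 39.4% of such windows over all 13945 genes. Gad1 also held CGATA and GAGAG, both read from the other strand. Those were in 28.3% and 13.2% of all windows, TATCGATA was in 6.20% and GGTCACAC in 3.02%. The windows hold 4 genes picked by name, and a match is not a bound site. They end at the first TSS, whereas the windows of elav, Syx1A and fne were centred on summits. The positions thus differ, and the matches in the 4 windows were not compared with those at the summits.

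ChAT nevertheless contained a strong reproducible region far from its start. The IDR peak chr3R:18719824-18720119 lay 14442 bp into the gene, 320 bp from the TSS of lncRNA:CR46265, a non-coding RNA gene within ChAT. Its pooled signal was 686 (rank 1381), higher than at the promoters of Syx1A and fne. In replicates 1, 2 and 3 the signal was 254, 262 and 165, at ranks 2002, 1007 and 1516, a mean percentile of 94.9 ± 1.67 (SD, n = 3). It was assigned to the promoter class of the non-coding gene and not to ChAT introns. VAChT, the vesicular acetylcholine transporter gene that lies within ChAT and shares its start, carried 3 further pooled regions in its 3′ UTR. It also had 1 in an intron, which is counted for ChAT too.

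Gad1 held one stretch that the pooled list missed. In an intron (dm6 chr3L:4080191-4080750), with summits 8318, 8291 and 8221 bp from the first TSS, each replicate had a region. It had rank 15422 (signal 47.1) in replicate 1, rank 11245 (signal 50.9) in replicate 2 and rank 13518 (signal 29.8) in replicate 3. No pooled region overlapped it.

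In every replicate the elav promoter region ranked above the highest region of each of the other 9 genes. The mean difference in percentile was 13.9 ± 8.43 (SD, n = 3) against the Syx1A promoter and 22.6 ± 2.28 against that of fne. Against the vesicle genes it was 6.71 ± 1.65 for the nSyb window and 13.8 ± 6.24 for the Syt1 window. Against the transmitter genes it was 4.88 ± 1.64 for the ChAT window, 34.6 ± 10.6 for Gad1 and 63.1 ± 28.8 for VGlut. With each replicate region matched by the nearest summit in place of the highest signal, the Gad1 difference became 53.8 ± 31.6. The exact two-sided sign-flip permutation test over 3 replicates gave p = 0.25 for each of the 9 comparisons, adjusted p = 0.25 (Benjamini-Hochberg over 9). This is the smallest p that 3 replicates allow, so no comparison could pass 0.05. The highest regions in the nSyb, Syt1, ChAT and Gad1 windows were at promoters of other genes. Those of Syt1 and Gad1 reached into the window only in part, with the pooled summit outside it. Their replicate 1 matches (signals 248 and 80.4) overlapped the pooled region but lay outside the window. The replicate 1 regions at the same promoters that reached into the windows had signals of 84.9 and 26.2.

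**Figure D2:**
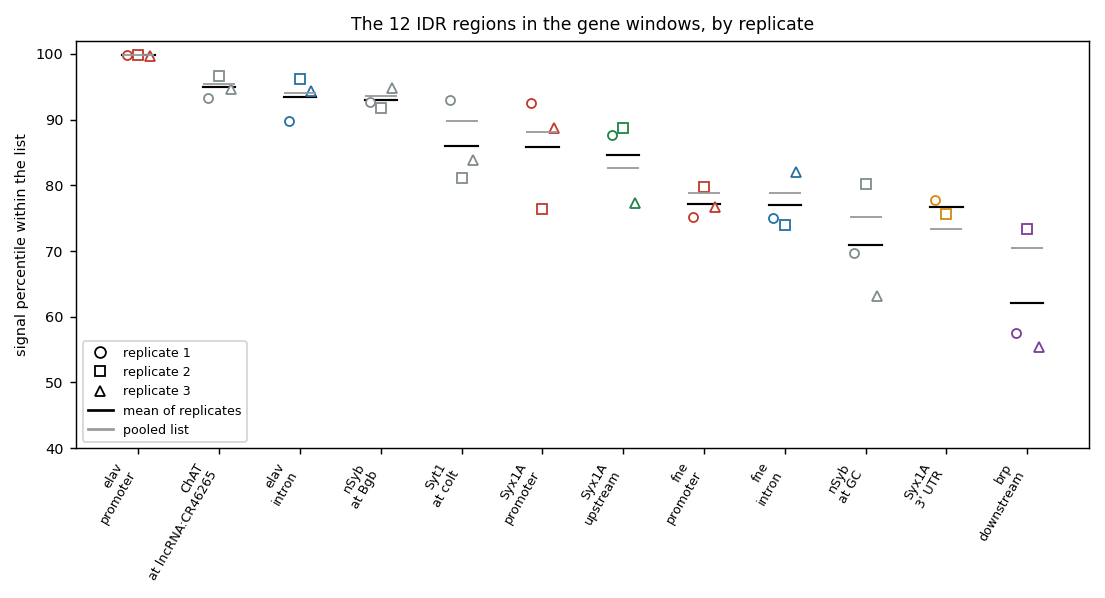
The 12 IDR peaks in the windows of the 10 genes, ordered by pooled signal. The y axis is the percentile of the signal within a list (starting at 40), open symbols are replicates 1 to 3 (the highest overlapping region, which for the Syx1A upstream peak in replicate 3 is a neighbour with its summit 231 bp away), black bars their mean and grey bars the pooled list. The 3 elav promoter points coincide near 99.8, the Syx1A promoter points spread from 76.4 to 92.5, and the Syx1A 3′ UTR peak has no point for replicate 3.

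Counting all regions, the 10 windows held 12 IDR peaks and 66 pooled regions. Of the IDR peaks, 3 were at own promoters, 2 in own introns, 1 in an own exon, 1 upstream, 1 downstream and 4 at promoters of other genes. An IDR peak of any class lay in the windows of 7 of the 10 genes, where 58.6% of all protein-coding genes had one. The 3 genes without one were para, VGlut and Gad1. The replicate lists held 68, 67 and 49 regions in the windows, the fewest in replicate 3.

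Introns of these genes carried few regions for their length. The elav and fne introns held the only IDR intron peaks, so 2 of the 10 genes had one, where 8.2% of all protein-coding genes did. In the pooled list 4 of the 10 had an intron region (elav, fne, para and ChAT), where 17.4% of all genes did. Per length, the 10 genes had 1.33 IDR and 7.96 pooled intron regions per 100 kb of intron, over 150.8 kb in all. All protein-coding genes had 4.40 and 22.3 per 100 kb. para alone has 57.8 kb of intron and had 2 pooled regions there and no IDR peak. brp and Syt1, with 22794 and 18087 bp of intron, had no intron region in either list. By contrast, elav had 3 pooled regions and 1 IDR peak in 2225 bp of intron. fne had 5 and 1 in 22109 bp, so the low density does not describe these ELAV family genes. With a TSS distance of 1000 bp the elav intron peak no longer counted, and among the stronger 50% of the IDR peaks that of fne did not. Both IDR intron peaks thus belonged to the ELAV family genes, and the transmitter and vesicle genes had none.

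Exons gave a different picture. Of the 13 pooled regions in own exons, 12 lay in 3′ UTRs and 1 in the coding sequence of ChAT. Only 1 of those 12 was an IDR peak, and the pooled list includes background. A pooled 3′ UTR region was found in 7 of the 10 genes, where 4.16% of all protein-coding genes had one, and the 3 without were nSyb, VGlut and Gad1. An IDR 3′ UTR peak was found in 1 of the 10, Syx1A, where 0.394% of all genes had one. The replicates gave 7, 7 and 4 of the 10 genes, against 4.73%, 5.03% and 4.26% of all genes. These counts were taken after the regions had been seen. They were 4, 3 and 6 of the 10 genes without replicates 1, 2 and 3, and 4 among the stronger 50% of the pooled list, where 1.79%, 1.76%, 2.37% and 1.11% of all genes had such a region.

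elav held 4 of the 12 regions, at ranks from 10293 to 23978, spread over its 8557 bp of 3′ UTR. Replicates 1 and 2 had 5 and 6 regions there and replicate 3 had none. para, with 14315 bp of 3′ UTR, had 2 pooled regions and 3, 2 and 2 in the replicates. The stronger of those (signal 152, rank 10659) was at ranks 12195, 12237 and 11025 in replicates 1, 2 and 3. The fne region (signal 163.8, rank 9982) was at ranks 8396, 9521 and 25745, so replicate 3 was again low. Syt1, brp and ChAT had 1 each, and Syx1A had 2 that overlap each other.

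The 3′ UTRs of these genes are long, with a median of 3708 bp against 215 bp over all protein-coding genes, and longer ones held a region more often. Among all genes with over 4000 bp of 3′ UTR, 38.9% of 221 had a pooled region there, and the 5 of the 10 in that class (elav, fne, Syt1, para and brp) all did. Among the 679 genes between that and 2000 bp it was 18.9%, and neither nSyb nor VGlut did. Among the 1228 genes of the class down to 1000 bp it was 12.3%, and 2 of 3 did (Syx1A and ChAT, not Gad1). Per length of 3′ UTR, the 10 genes had 24.5 pooled regions per 100 kb against 9.43 for all genes. Length thus moved with the count, and its part in the result was not tested.

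**Figure D3:**
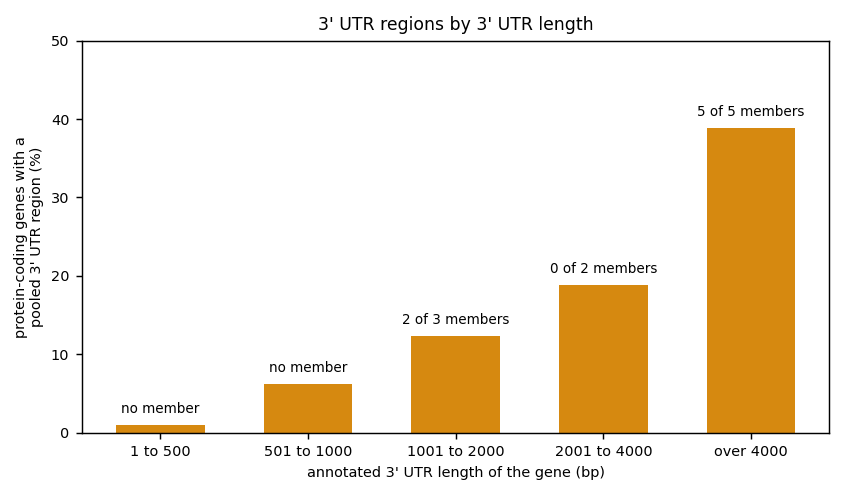
Share of protein-coding genes with a pooled region in the 3′ UTR (y axis, percent), by annotated 3′ UTR length in bp (x axis). The text over each bar gives how many of the 10 neuron and synapse genes in that class had one. The share rises with length to 38.9% in the longest class, where 5 of 5 of the 10 genes had a region.

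Beyond these 10 genes, 108 others on a list of neuron genes were examined by role. Of them 24 (22.2%) had an IDR promoter peak and 69 (63.9%) a pooled one, against 42.3% and 57.9% of all protein-coding genes. Genes of vesicle recycling had an IDR peak in 7 of 9 cases, led by EndoA (signal 651), the endophilin gene, shi (560), the dynamin gene, lap (507), a clathrin adaptor gene, and Dap160 (462), the intersectin gene. The lap peak also lay at CG10055. Genes of vesicle fusion and release had one in 7 of 17 cases. The highest were Rop (723), which encodes the Sec1 protein that binds syntaxin and whose peak is shared with Ras64B, Tomosyn (462), Csp (399), a vesicle chaperone gene, and comt (390), which encodes NSF and whose peak is shared with CG15742 and mew.

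Of the other active zone and adhesion genes 4 of 12 had a peak: Nrx-1 (747), the neurexin gene, Nlg2 (528), a neuroligin gene, dlg1 (437), the Discs large scaffold gene, and RhoGAP100F (349), also called Syd-1, with FeCH. Of the other voltage-gated channel genes 4 of 16 did. NaCP60E (1646), a paralog of para, shared its peak with the ribosomal protein gene RpL41 and the potassium channel gene sei (716) with gammaSnap1. The potassium channel genes Hk (302) and eag (244) followed, the latter at a peak shared with CG9030. Of the other transmitter synthesis and transport genes 2 of 14 did, Tbh (322), which makes octopamine, and Ace (231), which breaks down acetylcholine. No transmitter receptor gene of 39 had an IDR promoter peak, though 14 had a pooled one. The remaining ELAV family gene, Rbp9, had a weak pooled promoter region (63.1) and no IDR peak at its promoter. It did have 2 IDR peaks in introns.

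Genes of membrane fusion in most cell types were set beside Syx1A and nSyb. The list held 17 such genes: 14 SNARE genes, with Slh, a Sec1 family gene, Nsf2, an NSF gene, and alphaSnap, an NSF adaptor gene. Of the 17, 16 had an IDR promoter peak (94.1%), and the SNARE gene Syx16 was the one without. At 10 of the 16 the peak also lay at a TSS of another gene. The highest were Snap29 (1106), Syx4 (934), Syx18 (784) and Syx13 (683). The Snap29 peak was shared with CG5554 and that of Syx18 with atl. Syb, the paralog of nSyb, had a peak of 361, whereas nSyb had none at its own promoter. Syx1A, at 414, lay above 4 of the 16 genes with a peak (Syb, Nsf2, Syx8 and Snap24) and below the other 12. Of the glial genes, set beside the neuron genes as another cell type of the nervous system, 3 of 10 had a peak: moody (1784), Gli (447) and loco (365), the last at a peak shared with wake.

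**Figure D4:**
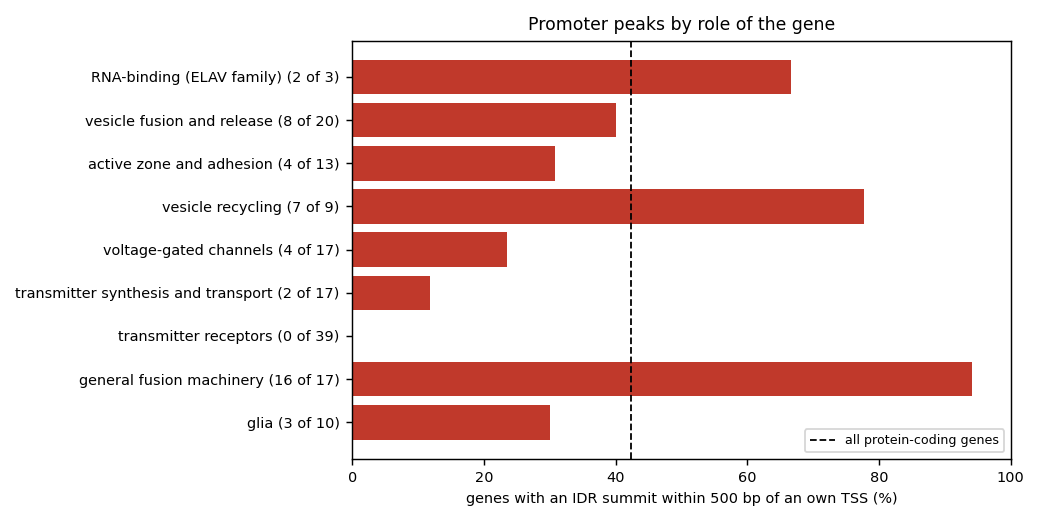
Share of genes with an IDR summit within 500 bp of an own TSS (x axis, percent, from 0), by the role of the gene (y axis, with counts). The 10 genes are included in their roles, and the dashed line is the 42.3% of all protein-coding genes. The bar for general fusion machinery (16 of 17) is the longest, and transmitter receptors (0 of 39) have none.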

How the data were processed

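The deposited region lists on the dm6 build were used. Per the file notes, the authors called regions per replicate and on all replicates jointly, using 1 control alignment (not analysed here), and an IDR step then kept the reproducible ones. Aligner, peak caller, versions and IDR cut-off were not given in the sources used here.

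Each region's signal value is the authors' own, deposited in the narrowPeak files, and was used only within a list. Depth per sample is unknown. The antibody label names CG12659, but the precipitation is described as anti-GFP, which is taken here. The labels call the replicates biological and do not say whether embryos were collected separately, so spreads and p-values measure only these samples.

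Genes, exons and TSSs came from the Ensembl annotation of BDGP6 and sequences from the release 6 genome. Lists on dm3 were not used, and coordinates are 1-based. A replicate region matched a pooled region by any base of overlap, and the one with the highest signal was taken. Shares of all 13945 protein-coding genes stand beside the main counts. Percentile differences were tested by an exact two-sided sign-flip permutation test over 3 replicates.

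The genes and lists were chosen with earlier results of these data known, and the 3′ UTR counts, their length classes and the alternatives on them, on the general fusion genes and on matching by the nearest summit were added after seeing the data. Named genes were the 10 genes, the 4 with the highest IDR promoter signal of each role, the neighbours of the elav peak in signal and genes sharing a summit. VAChT, Rbp9, Syb, Syx16, Slh, Nsf2, alphaSnap, Syx8 and Snap24 were named after their values were seen. Of 146 listed genes 145 matched, 2 by a synonym, and Caps did not. Alternatives were other TSS distances, windows, overlaps and signal limits and each replicate left out. With a replicate left out, overlapping regions of the remaining pair (by 50% of the shorter region) formed the set, taken either from the 8952 highest or from the whole lists. Scripts ran in Python 3.11.15 with pandas 2.3.3 and numpy 2.4.6, and figures were drawn with matplotlib 3.10.9.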

Additional observations from a re-analysis of the deposited data

How the results depend on the processing

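The count of 3 genes with an IDR promoter peak became 1 with TSSs within 200 bp. It was 2 with the first TSS only and 2 among the stronger 50% of the IDR peaks. It ranged from 3 to 4 when a replicate was left out, where 37.2%, 37.9% and 39.0% of all genes had a peak without replicates 1, 2 and 3. The 24 other neuron genes with one became 13 among the stronger 50% of the IDR peaks, and 22 to 23 without 1 replicate. Of the pooled regions in the windows, 66 in all, 42 were left with windows that end at the gene and 28 among the stronger 50%, and leaving out a replicate gave 35 to 51. The 2 IDR intron peaks became 1 with a TSS distance of 1000 bp and 1 among the stronger 50%. Among the 8952 highest regions only, the mean percentile was 99.2 for the elav promoter, 53.3 for that of Syx1A, 24.8 for that of fne and 5.06 for that of Syt1 (77.2 and 55.8 over the whole lists for fne and Syt1), since the scale then starts at the lowest of those regions and replicate 3 drops out for Syt1. Without 1 replicate the elav and Syx1A means ranged from 99.74 to 99.79 and from 82.6 to 90.6. The 7 genes with a pooled 3′ UTR region became 4 (elav, fne, Syx1A and para) among the stronger 50%, where 1.11% of all genes had one. They became 3 to 6 when a replicate was left out: 4 without replicate 1, 3 without replicate 2 and 6 without replicate 3, where 1.79%, 1.76% and 2.37% of all genes did. With a replicate left out the sets were smaller, 7530, 7509 and 7771 regions in place of the IDR peaks and 18552, 18835 and 21459 in place of the pooled list, and the cause of these changes was not tested. The alternatives on the other counts moved them less: 5 to 8 genes had an IDR peak of any class in the window (7 as reported), 12 to 16 general fusion genes had a promoter peak (16 as reported), and elav ranked above all 9 other genes in each of 5 alternatives. No share of all genes is given here for the alternative window counts, the first TSS only, the stronger 50% of the IDR peaks or the 12 fusion genes. Those counts stand without a background. Introns lie within the gene, so the window cannot change their count. Replicate numbers pair no groups, since there is 1 group, and the elav comparisons were paired within replicates.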
